A study of Mus musculus with 4 samples.

Results

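The genes described here are the nuclear genes of oxidative phosphorylation, the 5 protein complexes of the inner mitochondrial membrane that turn the energy of nutrients into ATP. They were chosen by symbol alone: names that begin with Nduf followed by a, b, c, s or v (complex I), Sdha to Sdhd (complex II), Uqcr (complex III), Cox4 to Cox8 (complex IV) and Atp5 (complex V). Ndufa4 and Ndufa4l2 match the first of these names but are counted here with complex IV. Of 24421 genes counted, 92 matched, and 84 of them had enough counts to be tested. The names cover 82 subunit genes, 7 assembly factors of complex I (Ndufaf genes), the supercomplex factor Cox7a2l, and Atp5s and Atp5sl, which encode no subunit of the ATP synthase. The subunits encoded by mitochondrial DNA do not match these names and were not analysed here.

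The cells were Foxp3-positive regulatory T cells (Tregs) of strain B6 Foxp3-DTR/GFP, which carries a diphtheria toxin receptor and a green fluorescent protein at the Foxp3 locus. They came from a tumor-free, CD45.1-negative mouse and were recovered from its parabiotic partner, a CD45.1-positive mouse injected intraperitoneally with EG7.1.15 tumor cells, after surgical joining of the pair had let blood cells pass between them for 14 days. Omental tumor and spleen of the tumor-bearing partner gave 2 libraries each, from mouse 2 and mouse 3, at day 14 after tumor injection, from live cells gated as CD45.1-negative, CD45.2-positive, B220-negative, CD4-positive, CD25-positive and GFP-positive. All 4 libraries share this genotype, tumor and parabiosis, so the comparison is between the tissues the cells had entered, and no library of a tumor-free host was analysed here.

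In the respiratory chain, complex I (NADH dehydrogenase) and complex II (succinate dehydrogenase) pass electrons to ubiquinone, complex III passes them to cytochrome c, and complex IV (cytochrome c oxidase) passes them to oxygen. Complexes I, III and IV pump protons, and complex V (ATP synthase) uses the return of the protons to make ATP. Tregs are known to rely more on fatty acid oxidation and oxidative phosphorylation than effector T cells do.

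RefSeq promoter windows on build GRCm38.p6 were found for 76 of the 92 genes. The core of nuclear respiratory factor 1, CGCATGCG on either strand, occurred in 11 of these 76 windows (14.5%), against 2.07% of the windows of 27025 genes. The core bound by ETS family factors such as GABPA, CCGGAAG on either strand, occurred in 17 (22.4%), against 9.93%. The TATAAA box on the sense strand occurred in 3 (3.95%), against 9.77%. Both cores together occurred in 5 windows, those of Uqcr11, Cox6a1, Atp5j, Atp5k and Atp5l (6.58%), against 0.426% of all genes. The first pair of sequences below is shown because it holds both cores, and because both genes were highest in the omental tumor library of mouse 3. So were 64 of the 84 tested genes. Atp5k encodes a small membrane subunit of the ATP synthase, and Uqcr11 a small subunit of complex III. The next 3 sequences belong to Cox5a, Ndufab1 and Uqcrfs1, which stood low in the spleen library of mouse 3. Each runs from 250 bases before to 30 bases after the RefSeq start, 5′ to 3′ on the sense strand, with the cores in capitals. The ETS core of Atp5k is on the opposite strand and reads CTTCCGG here, and the windows of Cox5a, Ndufab1 and Uqcrfs1 hold neither core nor the TATA box. A match is a run of letters and says nothing of binding, and whether the cores go with levels was not tested.
Atp5k, chr5:108434370-108434649, minus strand: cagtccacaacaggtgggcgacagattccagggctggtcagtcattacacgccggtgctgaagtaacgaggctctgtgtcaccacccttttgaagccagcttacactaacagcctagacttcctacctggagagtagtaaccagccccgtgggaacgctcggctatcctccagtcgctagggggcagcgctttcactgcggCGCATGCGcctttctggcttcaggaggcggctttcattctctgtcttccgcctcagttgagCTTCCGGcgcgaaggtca
Uqcr11, chr10:80406792-80407071, minus strand: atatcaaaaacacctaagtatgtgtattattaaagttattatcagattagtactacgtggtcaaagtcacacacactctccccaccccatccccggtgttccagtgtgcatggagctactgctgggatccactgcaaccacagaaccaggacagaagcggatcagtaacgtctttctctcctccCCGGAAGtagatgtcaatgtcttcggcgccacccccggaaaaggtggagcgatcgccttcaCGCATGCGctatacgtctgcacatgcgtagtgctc
Cox5a, chr9:57520982-57521261, plus strand: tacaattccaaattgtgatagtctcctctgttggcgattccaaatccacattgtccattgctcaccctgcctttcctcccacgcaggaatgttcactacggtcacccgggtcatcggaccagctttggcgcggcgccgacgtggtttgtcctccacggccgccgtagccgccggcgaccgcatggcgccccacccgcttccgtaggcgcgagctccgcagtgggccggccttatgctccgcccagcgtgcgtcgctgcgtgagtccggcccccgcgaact
Ndufab1, chr7:122101819-122102098, minus strand: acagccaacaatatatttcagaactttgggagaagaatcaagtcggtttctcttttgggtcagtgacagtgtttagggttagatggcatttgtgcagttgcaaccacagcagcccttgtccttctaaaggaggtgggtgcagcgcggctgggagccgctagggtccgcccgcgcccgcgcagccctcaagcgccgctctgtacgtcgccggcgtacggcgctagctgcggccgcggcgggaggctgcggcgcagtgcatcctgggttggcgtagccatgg
Uqcrfs1, chr13:30545287-30545566, minus strand: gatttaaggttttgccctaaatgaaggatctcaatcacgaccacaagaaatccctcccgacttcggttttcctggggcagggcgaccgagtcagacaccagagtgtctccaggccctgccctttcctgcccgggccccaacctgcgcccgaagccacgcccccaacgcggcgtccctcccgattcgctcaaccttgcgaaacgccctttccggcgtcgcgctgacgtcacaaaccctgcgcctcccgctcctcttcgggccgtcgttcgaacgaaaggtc

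The 4 libraries held 3764508 to 13598631 counts in genes, and the omental tumor library of mouse 3 was the shallowest. That library also stood apart in other ways. Alignments that were not unique made up 49.9% of its file, against 28.0% to 33.5% in the others, and the ribosomal RNA locus Rn45s took 4.86% of its gene counts, against 0.798% to 1.23%. Entries that fell in no annotated gene divided the libraries by mouse instead. They made up 48.9% and 44.2% of the omental tumor and spleen files of mouse 2, and 27.3% and 24.8% of those of mouse 3. Foxp3 was present throughout, at 81.4 and 84.3 CPM (counts scaled to a common library size) in omental tumor and 113 and 145 in spleen, for mouse 2 and mouse 3. Of the 5 Treg markers 2 were higher and 2 lower in omental tumor in both mice, and none was called. Of the 10 T lineage markers 9 were lower in omental tumor in both mice and none was called. Their sums were 3667 and 4404 CPM in omental tumor and 5575 and 9156 in spleen. These markers were uneven in the omental tumor of mouse 3. Cd4 stood at 114 CPM there, against 376 to 1008 elsewhere. Cd3d stood at 913 there, against 334.5 to 803 elsewhere, and Cd3g at 1100, against 400 to 1123. The 8 neutrophil markers in the files summed to 1391 CPM there and to 57.0 to 117 elsewhere. Of the 7 tested, 4 were called higher in omental tumor, against 1.16% of all genes. Ngp and Camp went the other way in mouse 3, at 1.52 and 0.506 CPM in omental tumor and 8.69 and 1.19 in spleen. The 9 macrophage and monocyte markers summed to 431.5 and 483 CPM in omental tumor and 198 and 411 in spleen. Lyz2 gave the largest part of the omental sums, at 250 and 297 CPM, against 6.85 and 61.8 in spleen. Of the 9 markers 6 had a negative log2 fold change, and the median was -0.52. In both mice 3 of the 9 were higher and 2 lower in omental tumor, and 1 was called higher. The 6 fibroblast markers summed to 170 CPM for omental tumor of mouse 2 and to 6.5 to 13.9 elsewhere, and 1 of the 5 tested was called higher. Markers of brown fat and muscle, tissues rich in mitochondria, summed to 4.30 to 31.4 CPM, with the myoglobin gene Mb at 0 in 3 libraries.

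Together the 92 genes took 1.35% of the gene counts in the omental tumor library of mouse 2 and 2.71% in that of mouse 3. In spleen they took 1.13% in mouse 2 and 1.42% in mouse 3. The omental share was 2.03% ± 0.96 and the spleen share 1.27% ± 0.20 (mean ± SD, n = 2), with the omental library of mouse 3 above all others and that of mouse 2 between the spleen libraries. Within a mouse, the omental share was 1.19 times the spleen share in mouse 2 and 1.91 times in mouse 3. In bulk RNA of sorted cells, fewer cells that express a gene and less RNA per cell cannot be told apart.

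**Figure D1:**
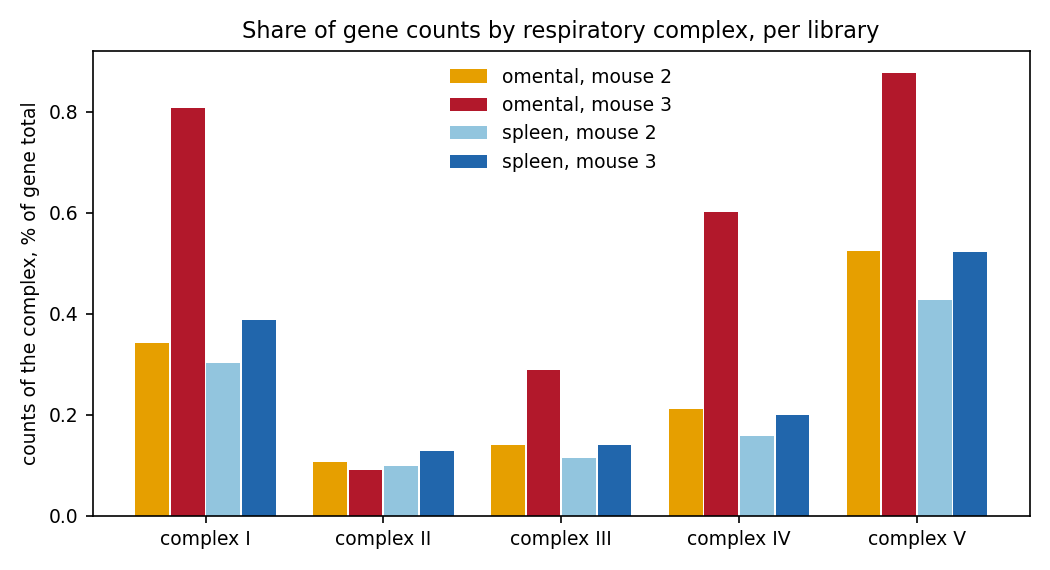
Counts of each respiratory complex as a percent of the library's gene total (vertical axis), with 1 bar for each of the 4 libraries. Complexes I, III, IV and V are tallest in the omental tumor library of mouse 3, at 0.808%, 0.288%, 0.601% and 0.877%, while complex II is lowest there, at 0.0903%.

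The complexes did not move together in mouse 3. Complex IV took 0.211% and 0.601% of gene counts in omental tumor (mouse 2, mouse 3) and 0.157% and 0.199% in spleen, a ratio of 1.34 in mouse 2 and 3.01 in mouse 3. Complex I took 0.343% and 0.808% in omental tumor against 0.303% and 0.388% in spleen, with ratios of 1.13 and 2.08. Complex III, at 0.139% and 0.288% against 0.114% and 0.140%, had ratios of 1.22 and 2.05. Complex V, with the most counts of the 5, took 0.524% and 0.877% in omental tumor against 0.427% and 0.522% in spleen, with ratios of 1.23 and 1.68. Complex II alone had the lower share in the omental tumor of mouse 3: 0.106% and 0.0903% in omental tumor against 0.0985% and 0.128% in spleen, ratios of 1.07 and 0.706.

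None of the 84 tested genes differed between omental tumor and spleen in edgeR's quasi-likelihood test with Benjamini-Hochberg adjustment over 16322 genes at 0.05. Among all genes, 1.16% were called higher in omental tumor and 0.263% lower. The lowest adjusted p of the 84 was 0.283, for Ndufab1. At an unadjusted p below 0.05, 3 of the 84 genes remained (3.57%), namely Ndufab1, Cox5a and Atp5k, against 10.2% of all genes. DESeq2 called none either, with 4 below an unadjusted p of 0.05. With the mouse as a replicate block in edgeR there were 0, and without the omental library of mouse 3 there were also 0. The smallest log2 fold change that the edgeR test called for any gene was 2.64 in size, whereas the 84 genes ranged from -1.25 for Atp5sl to 1.93 for Cox5a, with standard errors (SE) of 0.73 to 1.20. Changes of that size were not detectable with 2 libraries per tissue.

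The fitted log2 fold changes, omental tumor over spleen, were positive for 64 of the 84 genes (76.2%), against 53.9% of all genes tested, with a median of 0.59 against 0.13. By mouse, the median log2 ratio was 0.06 in mouse 2 and 0.81 in mouse 3, against 0.06 and 0.07 for all genes. The median was -0.38 without the omental library of mouse 3, with 9 of 85 genes positive, and 1.27 without the spleen library of mouse 3, with 81 of 87 positive. The direction of the group's median therefore rests on 1 library. Without the omental library of mouse 3 the medians were -0.52 for complex I, -0.20 for complex III, -0.24 for complex IV and -0.37 for complex V, all of which are positive with it, and -0.48 for complex II.

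The omental tumor library of mouse 3 gave the highest CPM of the 4 for 64 of the 84 genes, against 19.9% of all genes. The spleen library of mouse 3 was highest for 19 (30.9% of all genes), the spleen library of mouse 2 for 1 (15.5%), and the omental library of mouse 2 for none (33.8%). The spleen library of mouse 2 was lowest for 47, against 12.1% of all genes, and the omental library of mouse 2 for 23 (13.8%). Against the spleen library of mouse 2, the median log2 ratio of the 84 genes was 0.06 in the omental library of mouse 2. It was 0.74 in the spleen library of mouse 3 and 1.43 in the omental library of mouse 3. Levels were thus higher in both tissues of mouse 3, and the cause was not tested. Both omental libraries lay above both spleen libraries for only 2 of the 84 genes (2.38%), Ndufab1 and Uqcrq, against 16.4% of all genes. Both lay below for 8 (9.52%), against 25.4%. The ratio was above 1 in both mice for 43 (51.2%), against 36.9% of all genes, and below 1 in both for 11 (13.1%), against 31.6%.

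**Figure D2:**
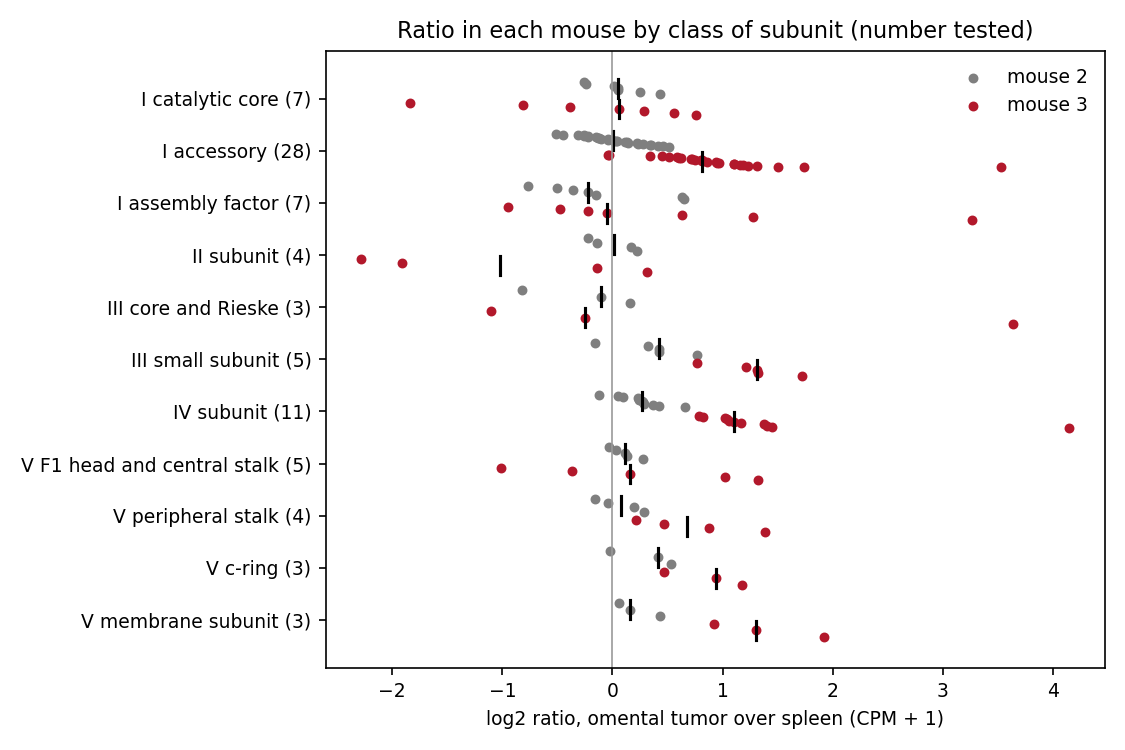
Log2 ratio of omental tumor over spleen on the scale of CPM + 1 (horizontal axis) for each tested gene, in mouse 2 (grey) and mouse 3 (red), by class of subunit, with the median as a black bar. In mouse 2 the medians lie from -0.22 to 0.42, and in mouse 3 from -1.03 for complex II to 1.31 for the small subunits of complex III. Cox7a2l, Cox7b2, Atp5s and Atp5sl are left out.

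Complex I is built from a catalytic core that carries the flavin and iron-sulfur clusters and a shell of accessory subunits. The 28 tested accessory subunits had a median log2 fold change of 0.57, with 26 positive, and median ratios of 0.01 in mouse 2 and 0.82 in mouse 3. The 7 core subunits had a median of -0.05, with 3 positive, and ratios of 0.05 and 0.06. Median transcript lengths were 718 bases for the accessory subunits and 1623 for the core. With the length trend removed, as described below, their median log2 fold changes were 0.11 and -0.25. Ndufb8, an accessory subunit of the membrane arm and among those with the most counts in the complex, stood at 138 CPM in omental tumor of mouse 2 and 379 in that of mouse 3, and at 114 and 196 in spleen. Its log2 fold change was 0.74 ± 0.77 (SE; edgeR adjusted p = 0.75). The groups overlapped, with the omental library of mouse 2 between the spleen libraries. Ndufc1, a very short accessory subunit, was at 50.3 and 217 CPM in omental tumor and 36.3 and 64.1 in spleen, a log2 fold change of 1.41 ± 0.75 (edgeR adjusted p = 0.515). It too was high in the omental library of mouse 3 and overlapped between tissues.

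Ndufs1, the largest core subunit and the carrier of several iron-sulfur clusters, went the other way. It was at 153 and 63.3 CPM in omental tumor (mouse 2, mouse 3) and at 147 and 230 in spleen, a log2 fold change of -0.80 ± 0.75 (edgeR adjusted p = 0.725). The omental library of mouse 3 was its lowest and the spleen library of the same mouse its highest. Ndufv2, a core subunit with an iron-sulfur cluster, was at 141 and 353 CPM in omental tumor and at 140 and 239 in spleen, so mouse 2 showed almost no difference.

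The complex I assembly factors, which act on the growing complex and are not part of it, had a median of -0.21, with 3 of 7 positive. Ndufaf1 was at 28.4 and 29.9 CPM in omental tumor and 33.3 and 58.8 in spleen. Ndufaf7, a mitochondrial methyltransferase, was at 40.4 and 39.0 CPM in omental tumor and 52.1 and 54.7 in spleen. Each lay lower in omental tumor without overlap, with log2 fold changes of -0.66 ± 0.76 and -0.43 ± 0.74 (edgeR adjusted p = 0.768 and 0.846). Ndufaf2 was at 13 and 41.8 CPM in omental tumor and 7.93 and 16.7 in spleen, and its groups overlapped.

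Complex II, which also serves the tricarboxylic acid (TCA) cycle, was uneven among its 4 subunits. Sdha, the flavoprotein that oxidises succinate, was at 481 and 183 CPM in omental tumor and 561 and 894 in spleen, a log2 fold change of -1.13 ± 0.87 (edgeR adjusted p = 0.676). Sdhc, a membrane anchor, was at 62.2 and 27.6 CPM in omental tumor and 68.8 and 107 in spleen, a log2 fold change of -0.96 ± 0.74 (edgeR adjusted p = 0.678). In both, every omental value lay below every spleen value, but mouse 2 differed by only -0.22 and -0.14 on the log2 scale, against -2.28 and -1.91 in mouse 3. Sdhb, the iron-sulfur subunit, was at 220 and 422 CPM in omental tumor and 189 and 340 in spleen. Sdhd, the other anchor, was at 162 and 228 CPM in omental tumor and 143 and 252 in spleen. These 2 subunits overlapped between tissues.

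In complex III the 5 small subunits (Uqcr10, Uqcr11, Uqcrb, Uqcrh and Uqcrq) had a median log2 fold change of 1.02, all positive, with median ratios of 0.42 in mouse 2 and 1.31 in mouse 3. Median transcript lengths were 445 bases for these and 1653 for the core and Rieske proteins. With the length trend removed, the medians of the 2 classes were 0.35 and -0.15. Uqcrq was at 148 and 437 CPM in omental tumor and 86.0 and 132 in spleen, a log2 fold change of 1.42 ± 0.78 (edgeR adjusted p = 0.53). It was higher in both omental libraries than in either spleen library. Uqcrb was at 186 and 568 CPM in omental tumor and 139 and 245 in spleen, so the omental library of mouse 2 lay between the spleen libraries. Uqcrc1, a large core protein of the complex, was at 318 and 270 CPM in omental tumor and 341 and 579 in spleen, lower in both omental libraries, with a log2 fold change of -0.65 ± 0.82 (edgeR adjusted p = 0.787). Uqcrc2, its partner, was at 199 and 247 CPM in omental tumor and 178 and 294 in spleen, with overlap. The other member of this class, the Rieske protein Uqcrfs1, had a log2 fold change of 1.12, with ratios of -0.82 in mouse 2 and 3.64 in mouse 3, and is described with the genes low in the spleen of mouse 3.

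Complex IV had all 12 tested genes on the positive side, with a median of 0.84. The supercomplex factor Cox7a2l is counted separately. The median ratios of the 12 complex IV genes were 0.25 in mouse 2 and 1.09 in mouse 3. Cox4i1, a regulatory subunit of the oxidase, was at 297 and 752 CPM in omental tumor and 254 and 426 in spleen, with a log2 fold change of 0.62 ± 0.83 (edgeR adjusted p = 0.796). Cox6c was at 209 and 811 CPM in omental tumor and 171 and 296 in spleen, and Cox8a at 218 and 608 against 137 and 230. In all 3 the omental library of mouse 3 was highest and the tissues overlapped. Cox7a2l, a factor linked to supercomplexes of complexes III and IV, was at 61.6 and 105 CPM in omental tumor and 120 and 169 in spleen. It was lower in both omental libraries, by 0.96 in mouse 2 and 0.68 in mouse 3 on the log2 scale, and had a fitted log2 fold change of -0.80 ± 0.74 (edgeR adjusted p = 0.724).

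In complex V the 5 subunits of the catalytic head and central stalk went both ways, with a median log2 fold change of 0.21. Atp5b, the catalytic beta subunit and the gene with the highest mean CPM of the 92, was at 1172 and 1139 CPM in omental tumor and 1147 and 1467 in spleen, a log2 fold change of -0.18 ± 0.99 (edgeR adjusted p = 0.955). Atp5a1, the alpha subunit, was at 923 and 689 CPM in omental tumor and 845 and 1392 in spleen, and it also overlapped. Atp5d and Atp5e, subunits of the central stalk, had log2 fold changes of 0.75 and 0.76, with ratios of -0.03 and 0.11 in mouse 2 and of 1.32 and 1.02 in mouse 3. The 3 membrane subunits Atp5j2, Atp5k and Atp5l had a median of 0.99, all positive. Median transcript lengths were 1166 bases for the head and central stalk and 544 for the membrane subunits. With the length trend removed, their medians were -0.15 and 0.34. Atp5k was at 50.8 and 294 CPM in omental tumor and 37.6 and 77.1 in spleen, a log2 fold change of 1.59 ± 0.75 (unadjusted p = 0.0356, edgeR adjusted p = 0.446). Atp5l was at 151 and 605 CPM in omental tumor and 135 and 246 in spleen. For both, the omental library of mouse 2 lay between the spleen libraries. Atp5sl, whose product is linked to the assembly of complex I, had the most negative value of the 84: it was at 19.8 and 14.9 CPM in omental tumor and 35.6 and 47.5 in spleen, a log2 fold change of -1.25 ± 0.78 (edgeR adjusted p = 0.6), without overlap.

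The c-ring of complex V, the rotor through which protons return, is encoded by Atp5g1, Atp5g2 and Atp5g3, whose mature proteins are the same. Atp5g3 gave 53.0% and 54.5% of the family's counts in omental tumor (95% Clopper-Pearson intervals 51.6% to 54.4% and 53.3% to 55.7%) and 51.2% and 53.8% in spleen (49.8% to 52.6% and 52.8% to 54.8%). Atp5g2 gave 17.2% and 15.4% in omental tumor (16.2% to 18.3% and 14.5% to 16.3%) and 22.4% and 21.0% in spleen (21.3% to 23.6% and 20.2% to 21.8%). Atp5g1 gave 29.8% and 30.1% in omental tumor against 26.4% and 25.2% in spleen. The Atp5g2 share was lower and the Atp5g1 share higher in both omental libraries than in either spleen library. With 2 libraries per tissue, an exact two-sided permutation test cannot go below 0.333, so no test is given, and Atp5g1 and Atp5g2 each have 4 near-identical pseudogenes. The intervals cover counting error only, since the reads carry no molecular identifiers.

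Several subunits have isoforms known from heart, skeletal muscle, lung or testis, and these were close to absent. Cox4i2, Cox6a2, Cox6b2, Cox7a1, Cox7b2, Cox8b, Cox8c and Ndufa4l2 had 0 to 24 counts per library. Cox7b2, the most counted of them, had 16 and 9 counts in omental tumor and 24 and 6 in spleen, which is at most 1.93% of the Cox7b and Cox7b2 counts (Clopper-Pearson interval 1.24% to 2.85%). Ndufa4l2, which is known to respond to hypoxia, had 3 counts in the omental tumor of mouse 2 and 0 elsewhere. In the omental tumor of mouse 3, 0 of 2313 counts of Ndufa4 and Ndufa4l2 allows a share of up to 0.13% when the limit is set at 3 counts of the total, and of up to 0.159% by the Clopper-Pearson interval. The ubiquitous isoforms Cox4i1, Cox6a1, Cox6b1, Cox7a2, Cox7b, Cox8a and Ndufa4 therefore gave 98.1% or more of their families' counts in every library.

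Per kilobase of transcript, median levels were ordered from complex I, the lowest, to complex V in the libraries of mouse 2. In the spleen of mouse 2 the median CPM per kilobase was 90 for complex I, 141 for complex II, 202 for complex III, 223 for complex IV and 249 for complex V. The omental library of mouse 2 had the same order, with 97.0, 149, 200.0, 230.0 and 259. The spleen library of mouse 3 had 155, 251, 338, 409 and 403, so complexes IV and V changed places by a small margin. In the omental library of mouse 3 the medians were 240.0, 124, 646, 709 and 676, and complex II was lowest. Across the 35 complex I subunits, the levels per kilobase in omental tumor and spleen ranked alike, with a Spearman's rho of 0.91 in mouse 2 and 0.89 in mouse 3. Across the 15 genes of complex V rho was 0.85 in mouse 2 and 0.12 in mouse 3. These correlations are across genes that share libraries and lengths, and are given as descriptions.

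The ratios in mouse 3 followed transcript length. Of the 35 genes with transcripts under 700 bases, all 35 had a higher level in omental tumor than in spleen in mouse 3, with a median log2 ratio of 1.1. Of 32 genes between 700 and 1500 bases, 25 were higher, with a median of 0.74. Of 17 genes over 1500 bases, 5 were higher, with a median of -0.39. All genes tested showed a weaker form of the same order in mouse 3, with medians of 0.67, 0.33 and -0.09 in these 3 ranges. In mouse 2 the medians were 0.22, 0.04 and 0.01 for the oxidative phosphorylation genes and 0.09, 0.09 and 0.05 for all genes. Across the 84 genes, Spearman's rho between length and the log2 ratio was -0.66 in mouse 3 and -0.29 in mouse 2, against -0.15 and 0.02 across 16178 genes.

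**Figure D3:**
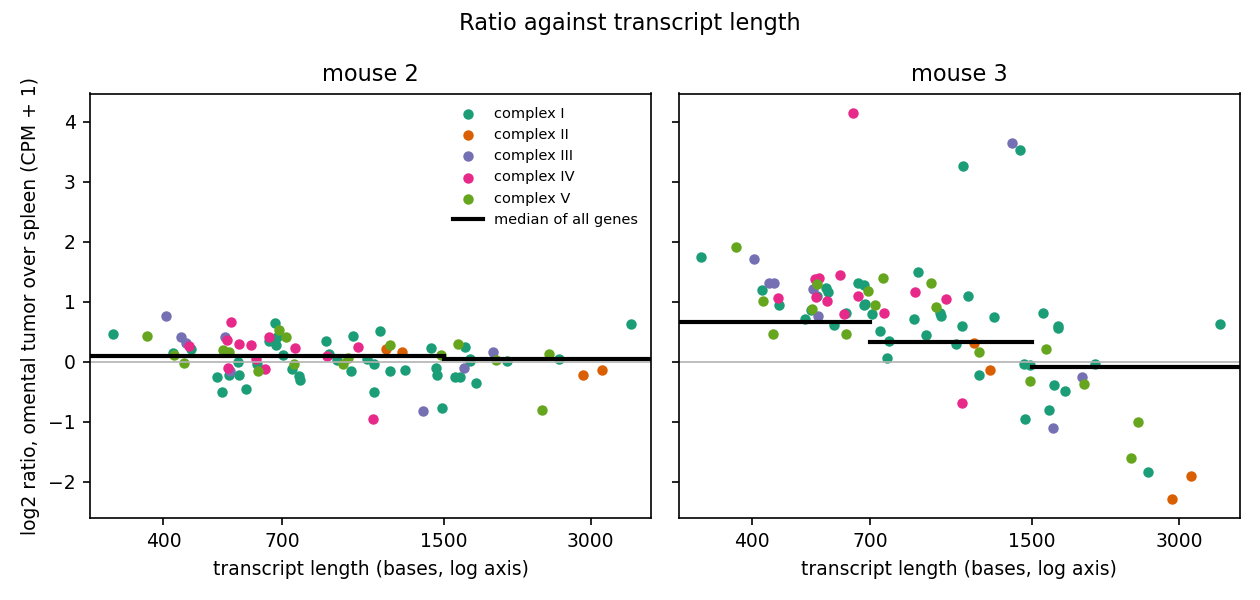
Log2 ratio of omental tumor over spleen on the scale of CPM + 1 (vertical axis) against transcript length in bases (log axis), for the 84 tested genes in mouse 2 (left) and mouse 3 (right), coloured by complex. Black lines give the medians of all genes under 700, from 700 to 1500 and over 1500 bases, which are 0.67, 0.33 and -0.09 in mouse 3, where the short subunits lie above 0 and Sdha and Sdhc lie lowest.

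Libraries of the same tissue also differed along transcript length. Between the omental libraries, mouse 3 over mouse 2, rho with length was -0.70 across the 84 genes, and between the spleen libraries -0.31. When the trend of level with length was removed from each library, the median log2 fold change of the 84 genes was 0.10, against 0.04 for all genes, with 50 of 84 positive. Complexes III and IV had medians of 0.35 each in that fit, complexes I and V of 0.08 each and complex II of -0.67. The part of length, of the ribosomal RNA and of the neutrophil markers in the higher levels of the omental library of mouse 3 was otherwise not tested.

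Another short and abundant group gave a partly different picture. Transcripts of the cytosolic ribosomal proteins took 2.85% and 7.08% of gene counts in omental tumor and 3.5% and 3.95% in spleen, and their 79 tested genes had a median log2 ratio of -0.41 in mouse 2 and of 0.57 in mouse 3. The oxidative phosphorylation genes were at 0.06 and 0.81. The mitochondrial ribosomal proteins were at -0.04 and 0.56 over 77 genes. The proteasome subunits were at 0.16 and -0.11 over 40 genes, and their summed counts took 0.825% and 1.14% of gene counts in omental tumor against 0.674% and 0.908% in spleen. The enzymes of the TCA cycle, which feeds the respiratory chain, were at 0.02 and -0.70 over 14 genes, and 3 of the 14 had a positive log2 fold change. They took 0.301% and 0.193% of gene counts in omental tumor and 0.244% and 0.308% in spleen, the pattern of complex II. Both sets have long transcripts, with median lengths of 2474 and 2066 bases, against 541 to 861 for the other complexes. With the length trend removed, their median log2 fold changes were -0.48 and -0.67.

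A few subunits were instead set apart by a low level in the spleen library of mouse 3. Cox5a, the subunit of complex IV that binds a thyroid hormone metabolite, was at 102 and 405 CPM in omental tumor and 111 and 21.9 in spleen, from 778, 1598, 1133 and 239 counts. Its log2 fold change of 1.93 ± 0.78 was the largest of the 84 (unadjusted p = 0.0128, edgeR adjusted p = 0.296). Uqcrfs1, the Rieske iron-sulfur protein of complex III, was at 52.2 and 179.8 CPM in omental tumor and 93.3 and 13.5 in spleen, a log2 fold change of 1.12 ± 0.74 (edgeR adjusted p = 0.629). Ndufab1, the mitochondrial acyl carrier protein and a complex I subunit, was at 57.8 and 185 CPM in omental tumor and 49.2 and 15.1 in spleen, a log2 fold change of 1.91 ± 0.76 (unadjusted p = 0.0115, edgeR adjusted p = 0.283). In each of the 3 the spleen library of mouse 3 was lowest, although it was the deepest library and although most other subunits were higher there than in the spleen of mouse 2. The assembly factor Ndufaf6 had the same order at a low level, 5.65 and 21.0 CPM in omental tumor and 8.42 and 1.28 in spleen.

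**Figure D4:**
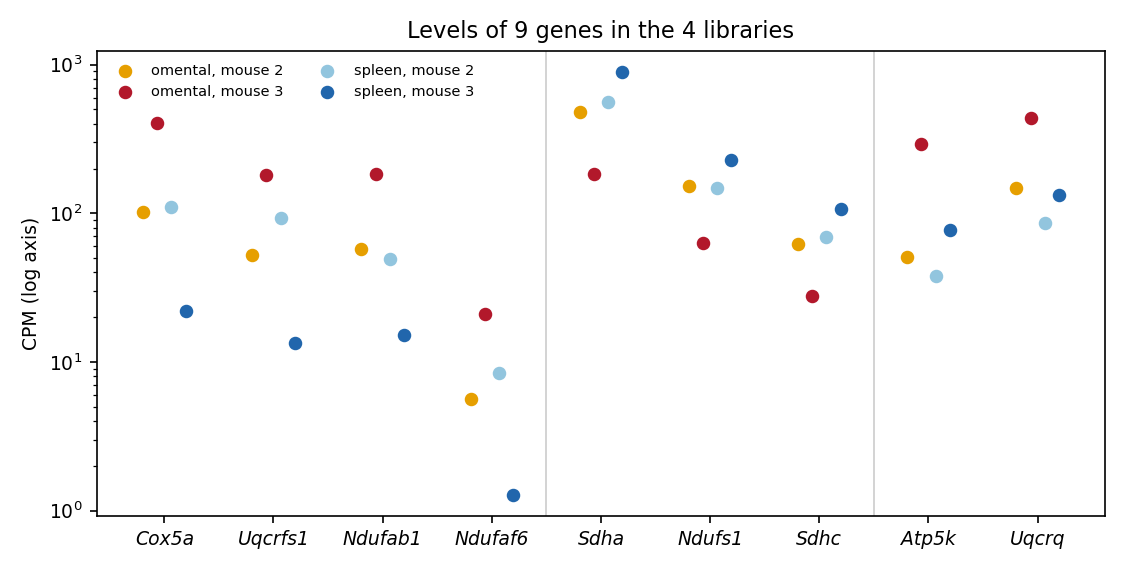
CPM on a log axis for 9 genes in the 4 libraries, with 1 point per library. Cox5a, Uqcrfs1, Ndufab1 and Ndufaf6 are lowest in the spleen library of mouse 3, Sdha, Ndufs1 and Sdhc are lowest in the omental library of mouse 3, and Atp5k and Uqcrq are highest there.

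These dips were uncommon. Among genes with at least 30 CPM in each of the other 3 libraries, the spleen library of mouse 3 lay more than 4-fold below their median for 2 of 74 oxidative phosphorylation genes (2.7%), Cox5a and Uqcrfs1, against 2.02% of 3722 genes. Ndufab1 lay just within that limit. The omental library of mouse 3 lay more than 4-fold below the median of the others for none of 72, against 16.8% of 4666 genes. It lay more than 4-fold above that median for 4 of 72 (5.56%), Atp5k, Ndufa5, Ndufc1 and Ndufs6, against 0.664% of the 4666. The limits of 30 CPM and 4-fold were chosen after the values were seen.

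The other genes of the pathway did not show a shared direction. Of 65 further genes for electron carriers, assembly factors, carriers of nucleotides and phosphate, and regulators of mitochondrial biogenesis, 63 were tested and none was called in either direction, and 32 had a positive log2 fold change, with a median of 0.05 and median ratios of -0.39 in mouse 2 and 0.20 in mouse 3. Both omental libraries lay below both spleen libraries for 16 of the 63 and above for 6, against 25.4% and 16.4% of all genes. Cycs, the electron carrier cytochrome c, was at 389.6 and 1151 CPM in omental tumor and 230.2 and 405 in spleen, a log2 fold change of 1.28 ± 0.87 (edgeR adjusted p = 0.644), with overlap. Cyc1, the heme subunit of complex III that hands electrons to it, was at 94.4 and 266 CPM in omental tumor and 102 and 20.04 in spleen. It had the same low value in the spleen of mouse 3 as Cox5a and Uqcrfs1. Atpif1, the inhibitor of the ATP synthase, was at 72.2 and 328 CPM in omental tumor and 60.9 and 115 in spleen. Ucp2, an inner membrane carrier, was at 734 and 506 CPM in omental tumor and 1069 and 1906 in spleen, lower in both omental libraries, with a log2 fold change of -1.26 ± 0.98 (edgeR adjusted p = 0.678).

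The 14 regulators of mitochondrial biogenesis had a median log2 fold change of -0.81, and 3 of them were positive. Their transcripts had a median length of 3572 bases, and with the length trend removed their median log2 fold change was -0.87. Tfam, which packages mitochondrial DNA, was at 73.6 and 65.6 CPM in omental tumor and 105 and 162 in spleen, lower in both omental libraries, with a log2 fold change of -0.94 ± 0.74 (edgeR adjusted p = 0.687). Gabpb1, a partner of GABPA, was at 226 and 90.6 CPM in omental tumor and 115 and 112 in spleen, with overlap.

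Near-identical copies limit what counts of short subunit genes can show. Of the 92 genes, 19 have an annotated pseudogene at least 90% identical over at least 50% of the transcript, and reads that fit both cannot be assigned to one. Atp5l has 12 such copies, and Atp5h has 5. Ndufs5, an accessory subunit of complex I, was listed at 0 counts in all 4 libraries and has 1 copy that is 99.4% identical. Why Ndufs5 was listed at 0 was not tested, so its 0 is uncertain and no fold change is given.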

How the data were processed

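Regulatory T cells of 2 parabiotic pairs were profiled by RNA-seq, with 1 library each from omental tumor and spleen of mouse 2 and mouse 3. Per the labels' protocols, cDNA came from the SMART-seq v4 kit and libraries from Nextera XT, neither of which marks strand, so reads of a gene and an overlapping antisense gene cannot be told apart. The authors deposited whole-number read counts per gene symbol. Per the submitters' processing notes, the tools were Trim Galore and TopHat2, then SAMtools and HTSeq, on build mm10; no version, strand setting or annotation is given in the sources used here. The 5 HTSeq summary entries that name no gene were kept out of library sizes: genes received 17.1% and 22.2% of the omental files' entries and 24.9% and 46.0% of the spleen files'.

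In R 4.3.3, edgeR 4.0.16 was fitted to all 4 libraries with tissue alone, TMM factors (1.15, 1.05, 1.03 and 0.804, in the order omental tumor 2 and 3, spleen 2 and 3) and filterByExpr at a minimum count of 10, which kept 16322 of 24421 genes. CPM are counts per 1e6 of the TMM-scaled gene total, so the factor of 0.804 raises every CPM of the spleen library of mouse 3. Shares are percents of the unscaled gene total. Ratios within a mouse are log2 of CPM plus 1. SE is the absolute log2 fold change over the square root of F. The prior degrees of freedom were infinite, so SE and p do not measure a gene's own spread between mice. The script was tested on simulated data. The mouse numbers mark the same animal in both tissues, per the labels, so they pair the libraries. Deviations from tissue means correlated at 0.168 across genes within a mouse and at -0.0205 across the oxidative phosphorylation genes. Transcript lengths came from GENCODE M21 on GRCm38, the build mm10, and promoters from RefSeq on GRCm38.p6.

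The genes and lists were chosen with earlier results of these data known. Genes are named by abundance and by the extremes of log2 fold change within each complex, plus complex II and the isoform families in full, extremes of the assembly factors, and the most abundant genes of each further list. A gene within this rule is not reported here. Ndufa5, Ndufs5, Ndufs6, Uqcr10, Uqcr11, Uqcrh, Atp5d, Atp5e, Atp5h, Atp5j, Atp5j2 and Atp5s are named as well, after their values were seen. Alternatives were RLE factors, library totals, no filter, a minimum count of 50, DESeq2 1.42.0, the replicate block, removal of the length trend, other pseudocounts, and leaving out each library.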

Additional observations from a re-analysis of the deposited data

How the results depend on the processing

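With 2 libraries per tissue, 3764508 to 13598631 gene counts and a smallest called log2 fold change of 2.64, moderate differences were out of reach. No oxidative phosphorylation gene was called under any of the 11 alternative fits, though 28 to 358 genes were called overall in those fits, apart from 4 with a minimum count of 50 and 0 without a filter. Those with fewer calls than the 233 of the reported fit by over 1.5 times were library totals (28), a minimum count of 50 (4), no filter (0) and the fits without the omental library of mouse 3 (77), the spleen library of mouse 2 (60) or that of mouse 3 (97). DESeq2 called 358. With library totals 26 calls were higher and 2 lower in omental tumor, against 190 and 43. Shares of counts with subunits alone or without the most abundant genes, and medians by mouse with pseudocounts of 0.1 and 5, moved by less than 1 SD. The median log2 fold change of 0.59 ranged from 0.10 with the length trend removed to 0.91 with a minimum count of 50, and was 0.45 with the replicate block, which changed no call. Library totals moved the median of all genes by 0.28, to 0.40, and that of the oxidative phosphorylation genes to 0.87. Leaving out 1 library gave -0.38 to 1.27. These fits take the spread of the remaining single library from the pair of the other tissue.

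Some uncalled genes changed sign. Uqcrc2 was at 0.03 with RLE factors and DESeq2, and at 0.22 with library totals and a minimum count of 50. Sdhd was at 0.10 with RLE factors and DESeq2, 0.28 with library totals, 0.29 with a minimum count of 50 and 0.01 with the replicate block. Acad9 was at 0.09, 0.09, 0.25 and 0.23 in those fits without the block, and at 0.12 with the length trend removed. Atp5b was at 0.11 with library totals and a minimum count of 50. With the length trend removed, Atp5g2 was at -0.31, Cox6b1 at -0.02, Sdhb at -0.09, Sdhaf4 at -0.46 and Slc25a5 at -0.10. Sdhaf4 was at -0.06 with the replicate block and -0.09 without a filter.

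Leaving out each library in turn also changed signs, most often without the omental library of mouse 3. The ranges were Ndufv2 -0.52 to 1.21, Ndufb8 -0.26 to 1.58, Ndufc1 -0.09 to 2.32, Uqcrc1 -1.04 to 0.02, Uqcrb -0.13 to 1.85, Uqcrfs1 -0.11 to 3.05, Uqcrc2 -0.46 to 0.62 and Cox4i1 -0.29 to 1.43. They were Cox6c -0.25 to 2.00, Cox6b1 -0.55 to 1.48, Atp5b -0.40 to 0.27, Atp5a1 -0.85 to 0.15, Atp5k -0.27 to 2.66, Atp5l -0.42 to 1.91, Sdhb -0.36 to 1.12, Sdhd -0.43 to 0.76 and Ndufaf2 -0.02 to 2.19. For others they were Ndufaf1 -1.07 to 0.07, Cox6a1 -0.24 to 1.63, Cox7a2 -0.20 to 1.85, Cox7b -0.29 to 1.64, Ndufa4 -0.32 to 1.74, Atp5g2 -0.50 to 1.07, Atp5g3 -0.17 to 1.66, 2410015M20Rik -0.79 to 1.18 and Uqcc2 -0.35 to 1.73. For the rest they were Acad9 -0.70 to 0.37, Sdhaf4 -0.89 to 0.76, Atpif1 -0.37 to 2.16, Slc25a5 -0.20 to 0.98 and Gabpb1 -0.34 to 0.90. The causes were not tested.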

Other observations

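The spleen library of mouse 3 lay more than 4-fold below the median of the other libraries for 75 of 3722 genes with at least 30 CPM in each of those. These include genes that were also low in the spleen of mouse 2, and genes not specific to mitochondria such as Junb, Xbp1, Pfn1 and Gnai2. The share of mitochondrial genes in the 75 was not set against that in the 3722. Some of the 75 encode mitochondrial proteins besides Cox5a and Uqcrfs1, named here after their values were seen. Tomm20, a receptor of the outer membrane import machinery, Timm50, a receptor of the inner membrane import machinery, Atad3a, an ATPase of the inner membrane, and Mff, a receptor in mitochondrial fission, were among them. Tomm20 was at 71.0 and 316 CPM in omental tumor and 85.6 and 15.5 in spleen. Of 48 mitochondrial ribosomal proteins at that level, Mrpl3 and Mrps15 were, as was 1 of 22 further pathway genes, Cyc1, and 1 of 37 proteasome subunits, Psmd3. None of 13 TCA cycle enzymes, 76 cytosolic ribosomal proteins or 12 glycolysis genes was. Whether they share anything with the subunits was not tested.

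The genes of glycolysis, the other route to ATP, were distributed differently from the subunits. The list holds 15 genes, among them the glucose transporter Slc2a1. They took 0.983% and 0.813% of gene counts in omental tumor (mouse 2, mouse 3) and 0.477% and 0.688% in spleen. The median log2 ratio was 0.86 in mouse 2 and -0.60 in mouse 3. Eno1 had only 16 to 82 counts per library, and near-identical copies were not searched for in this list. Both omental libraries lay above both spleen libraries for 5 of the 15 and below for 2, against 16.4% and 25.4% of all genes. The fitted log2 fold change was positive for 7 and negative for 8, with a median of -0.06. Hk2, which starts glycolysis, had the highest. It was at 18.5 and 30.4 CPM in omental tumor and 5.28 and 6.59 in spleen, a log2 fold change of 2.03 ± 0.87 (edgeR adjusted p = 0.355). Tpi1 was at 346 and 588 against 109 and 238. Hk1 had the lowest, at 264 and 49.4 CPM in omental tumor and 292 and 516 in spleen. Its log2 fold change was -1.36 ± 0.80 (edgeR adjusted p = 0.57). None of the 15 was called at an adjusted p of 0.05.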
